A study of Mus musculus with 16 samples.

Results

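Mir28a, Mir151 and Mir708 are the 3 mouse hairpins of the miR-28, miR-151 and miR-708 family described here, out of 1174 annotated miRNA hairpins. They were chosen by name. Reads of 18 to 26 nt, after removal of the sequencing adapter, were counted where they matched a hairpin without a mismatch, and a read counted for the 5p or the 3p arm according to where its centre lay relative to the hairpin's midpoint. All 6 arms of the 3 hairpins had reads, of 576 arms with reads in all. All 6 also passed the minimum of 20 reads in total that left 539 arms to test.

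The RNA came from mouse mesenchymal stem cells of strain C57BL/6 and was sequenced as 16 libraries, 2 in each of 8 groups. Wild type here means Dicer f/f cells transfected with mCherry, a red fluorescent protein, and knockout means Dicer -/- cells transfected with mCherry. The other 6 groups were Dicer -/- cells transfected with human Dicer, either unchanged (hsDicer) or as D1320A, D1709A, D1320A/D1709A (the double mutant), K70A or Y971A/Y972A. All the human proteins were therefore studied in cells without mouse Dicer, and the labels do not say how much of each protein the cells made, so that the amount and the activity of an enzyme cannot be told apart. In bulk RNA, fewer cells that make a miRNA and less of it per cell cannot be told apart either. The labels give the 2 libraries of a group as replicates without saying that they came from separate cultures, so p-values measure only the spread between these libraries.

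To release a miRNA, Dicer makes 1 cut on each strand of the precursor beside its loop, which leaves a duplex of the 5p and the 3p arm. Its RNase IIIB domain, changed in D1709A, cuts the strand of the 5p arm, and its RNase IIIA domain, changed in D1320A, cuts the strand of the 3p arm. K70A changes the helicase domain, near the loop of a bound precursor, and Y971A/Y972A change the PAZ domain, where the precursor's 3′ end is bound. The hairpins of this family derive from LINE-2 repeats, an old class of transposable elements, and each lies within the intron of a protein-coding gene. miR-28 has been studied as a brake on B cell growth, miR-151 with its host gene Ptk2 in cell migration, and miR-708 in metastasis and the stress of the endoplasmic reticulum.

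The mature sequences are shown because miR-28a and miR-708 share the seed of the 5p arm, the stretch that pairs with target transcripts, but not that of the 3p arm. Capitals mark the seed, bases 2 to 8, and the sequences are those of RefSeq for GRCm38.p6.
miR-28a-5p: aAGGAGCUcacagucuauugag
miR-708-5p: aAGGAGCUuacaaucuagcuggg
miR-28a-3p: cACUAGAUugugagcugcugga
miR-708-3p: cAACUAGAcugugagcuucuag
The seed AGGAGCU belonged to these 2 of the 1738 mature miRNAs in the table and to no other. That table held no entry for miR-151, so its mature sequences are not shown and its seeds were not compared there. By its usual fragment, miR-151-5p holds the same 7 bases from base 4 rather than base 2. The seeds of miR-28a-3p and miR-708-3p each belonged to 1 mature miRNA. In GRCm38, Mir28a lies at chr16:24827855-24827940 on the plus strand in an intron of Lpp, and Mir708 at chr7:96249424-96249532 on the plus strand in an intron of Tenm4. Mir151 lies at chr15:73254815-73254882 on the minus strand in an intron of Ptk2, and an antisense gene, 1700085D07Rik, overlaps it with an intron.

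The libraries held 10331036 to 20502254 inserts of 15 nt or more, and all levels are counts scaled to 1000000 of these inserts (CPM). miRNA reads made up 37.5% and 47.4% of the wild-type libraries and 0.293% and 1.54% of the knockout libraries. Replicate 1 was read to 41 nt and replicate 2 to 51 nt in every group, so values are given for each replicate. Of 5 miRNAs known from mesenchymal cells all had reads, with a summed level of 9428 and 11225 CPM in wild type, while markers of pluripotent cells and liver were at 0 there, markers of blood cells at 0.780 CPM or less, and those of neurons, muscle and endothelium at up to 55.7, 111.5 and 298 CPM. Of all member reads, 8 also matched another hairpin name (Mir28c) and were left out.

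miR-28a-5p stood in wild type at 779 and 819 CPM (replicates 1 and 2), from 13478 and 16791 reads. It was at 6.49 and 3.32 CPM in the knockout and at 1954 and 174 CPM with hsDicer. With D1320A it was at 213 and 59.0 CPM. With D1709A it fell to 3.75 and 1.74 CPM and in the double mutant to 1.40 and 0.842 CPM, from 16 to 48 reads a library. With K70A it was at 711 and 370.5 CPM and with Y971A/Y972A at 2773 and 186 CPM. By mean level the order was Y971A/Y972A, hsDicer, wild type, K70A, D1320A, knockout, D1709A and the double mutant. The libraries of the first 3 groups overlapped with those of their neighbours, as did those of the knockout and D1709A, and the other neighbours did not overlap.

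miR-28a-3p, the other strand, had 2038 and 858 CPM in wild type. The knockout held 9.97 and 4.13 CPM of it and hsDicer 1201 and 182 CPM. With D1320A only 11.1 and 4.35 CPM remained, from 167 and 53 reads. D1709A kept 585 and 145 CPM, where miR-28a-3p ranked 10 of 240 and 13 of 252 arms. The double mutant held 0.790 and 1.11 CPM, K70A 426 and 269.7 CPM, and Y971A/Y972A 570.5 and 223 CPM. The single mutants thus ranked the arms of miR-28a in opposite order: the 5p arm was above the 3p arm with D1320A and below it with D1709A. Both arms were lower with D1320A than with hsDicer in each replicate. In order of mean level wild type, hsDicer, Y971A/Y972A, D1709A and K70A overlapped one with the next, D1320A and the knockout overlapped below them, and the double mutant lay lowest.

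By exact matches miR-151-5p was the most abundant arm of the family in wild type, at 2193 and 1926 CPM, where it ranked 24 of 156 and 19 of 437 arms. With reads that carry up to 3 extra 3′ bases counted, wild-type replicate 1 held 38158 reads of miR-151-5p and 49911 of miR-28a-3p. Wild-type replicate 2 then held 39986 and 26488. By exact matches the knockout held 8.91 and 6.07 CPM of miR-151-5p and hsDicer 342 and 639 CPM. D1320A held 1030.1 and 299 CPM, while D1709A held 10.4 and 4.15 CPM. In the double mutant the replicates went apart, with 227 CPM from 3737 reads in replicate 1 and 4.89 CPM from 93 reads in replicate 2. K70A held 2012 and 711 CPM and Y971A/Y972A 3378 and 337 CPM. Wild type, Y971A/Y972A, K70A, D1320A and hsDicer overlapped one with the next, and so did the double mutant, the knockout and D1709A below them.

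miR-151-3p, the rarer strand, had 184 and 275 CPM in wild type. The knockout held 7 and 3 reads of it, 0.678 and 0.188 CPM. With hsDicer it was at 0.555 CPM (8 reads) in replicate 1 and 84.9 CPM (1595 reads) in replicate 2. The low value of hsDicer replicate 1 holds for exact matches only, since that library held 6304 further miR-151-3p reads that end in 3 extra U bases, described below. D1320A held 8.47 and 3.04 CPM, D1709A 82.4 CPM from 1055 reads and 13.03 CPM from 135 reads, and the double mutant 0.121 and 0.316 CPM. K70A held 842 and 177 CPM, the highest mean of any group, and Y971A/Y972A 303 and 61.2 CPM. By exact matches D1709A lay above D1320A in both replicates, as for miR-28a-3p.

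**Figure D1:**
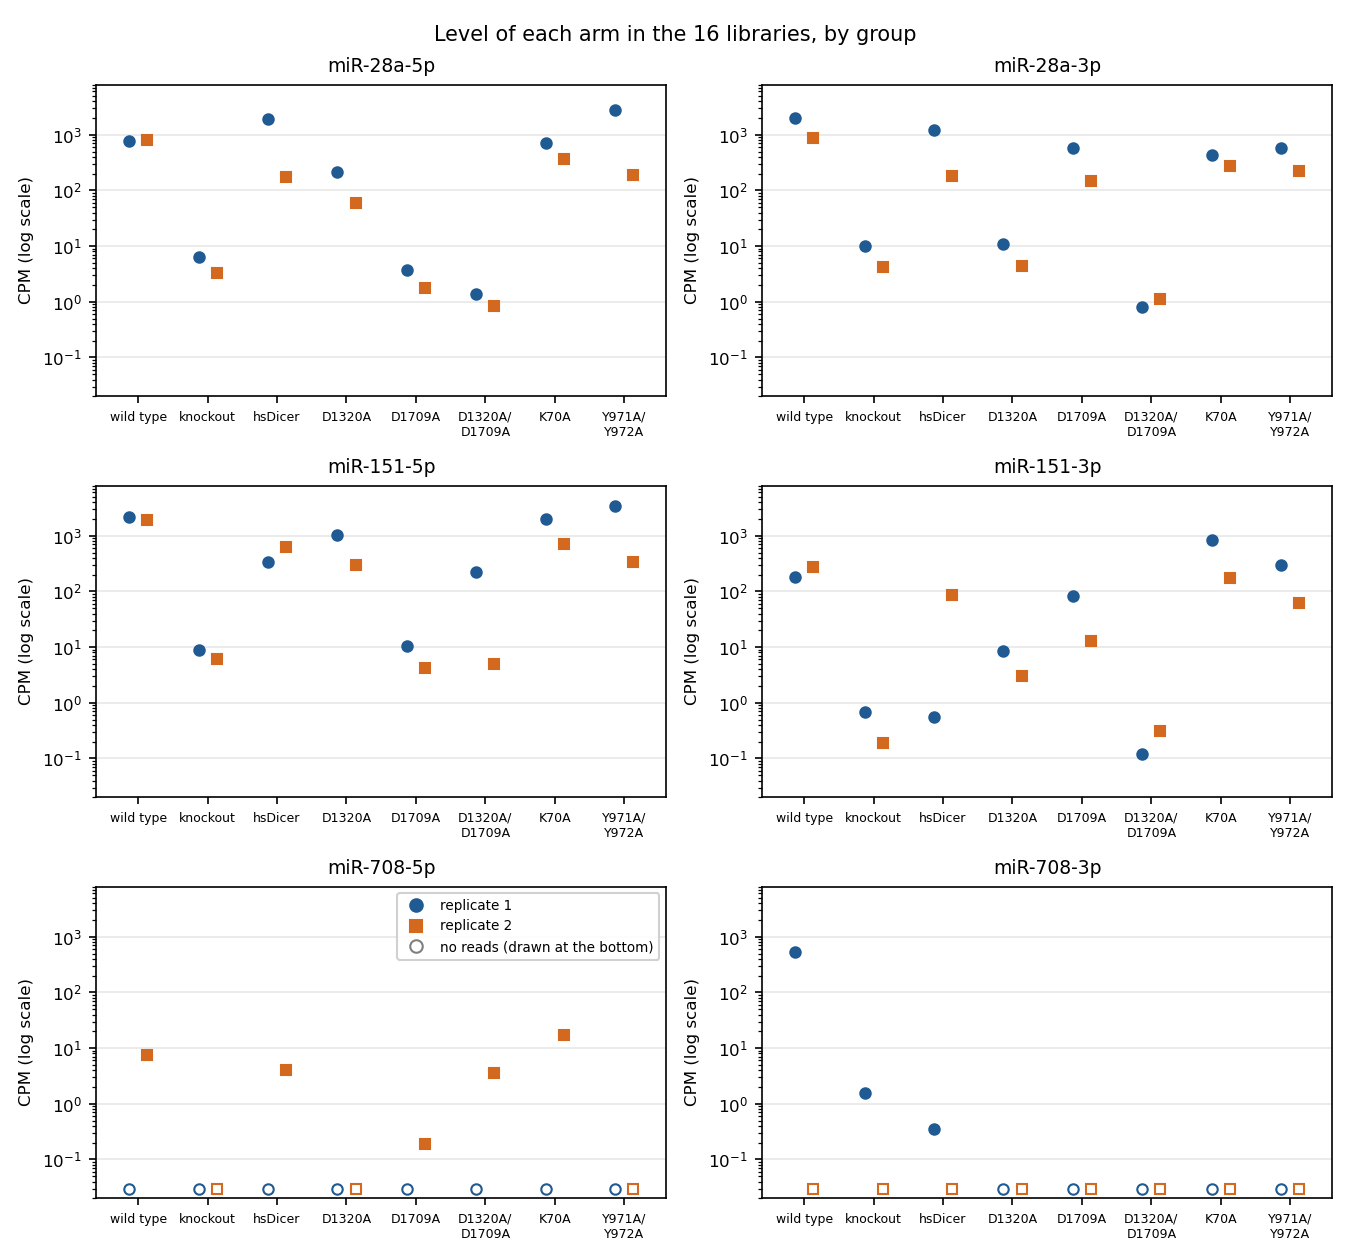
Level of each arm as CPM of all inserts (log axis) in every library, by group, with replicate 1 as circles and replicate 2 as squares, and libraries without a read drawn open at the bottom. The 5p arms of miR-28a and miR-151 lie low with D1709A, at 10.4 CPM or less, and their 3p arms low with D1320A, at 11.1 CPM or less, while each arm of miR-708 appears in the libraries of a single replicate number.

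miR-708 was seen as one arm or the other by replicate. Its 5p arm had no read in any replicate 1 library and was at 7.56 CPM (155 reads) in wild-type replicate 2, 3.99 CPM (75 reads) with hsDicer, 3.58 CPM (68 reads) in the double mutant, 17.1 CPM (237 reads) with K70A and 0.193 CPM (2 reads) with D1709A, and at 0 in the other replicate 2 libraries. Its 3p arm was at 537 CPM in wild-type replicate 1, from 9291 reads, at 1.55 CPM (16 reads) in the knockout and at 0.347 CPM (5 reads) with hsDicer of that replicate, and at 0 in all other libraries. In wild-type replicate 2 a count of 0 allows up to 0.146 CPM (3 reads) of miR-708-3p, and in wild-type replicate 1 up to 0.173 CPM of miR-708-5p. Of the 9291 reads 99.98% were 1 fragment of 23 nt. For miR-708-5p, edgeR's change against hsDicer was -4.27 (SE 5.95) with D1709A, -0.16 (SE 5.23) in the double mutant and 2.09 (SE 5.45) with K70A, and -0.92 (SE 5.27) for hsDicer against wild type. For miR-708-3p it was -10.54 (SE 5.32) for hsDicer against wild type and -2.11 (SE 3.70) against the knockout. No comparison of either arm passed edgeR's test, and read length and replicate number cannot be told apart in this contrast between libraries.

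Comparison of the knockout with wild type addressed which miRNAs need Dicer. Of the 6 arms 1 fell by edgeR's quasi-likelihood test, with p-values adjusted by Benjamini-Hochberg over all 539 arms: miR-151-5p changed by -8.10 on the log2 scale (SE 2.31, adjusted p = 0.0124). Over all arms 5.75% fell by this rule, and the median arm changed by -6.95. miR-28a-5p changed by -7.35 (SE 2.50, adjusted p = 0.0551 by edgeR) and miR-28a-3p by -7.68 (SE 2.66, adjusted p = 0.0629 by edgeR), just past the threshold of 0.05. miR-151-3p changed by -9.03 (SE 3.68) and miR-708-3p by -8.43 (SE 4.91), and neither passed. All 5 of these arms were lower in the knockout in each replicate in which they had reads. In knockout replicate 1 the arms stood at 0.497% (miR-28a-5p), 0.292% (miR-28a-3p), 0.243% (miR-151-5p), 0.220% (miR-151-3p) and 0.172% (miR-708-3p) of their wild-type replicate 1 reads. A set of 77 fragments outside the miRNA hairpins, absent from all replicate 2 libraries and each with at least 2000 reads in wild-type replicate 1, gives a comparison: all 77 were found in knockout replicate 1, at 0.236% of their wild-type reads. In knockout replicate 2 the arms stood at 0.316% (miR-28a-5p), 0.375% (miR-28a-3p), 0.246% (miR-151-5p) and 0.0531% (miR-151-3p), and the matching set there, only 7 fragments, at 24.1% in sum and 3.38% in median. What that shared level in replicate 1 contributes to the knockout reads of the family was not tested. The call of miR-151-5p was lost without knockout replicate 1 (adjusted p = 0.248 by edgeR) and without knockout replicate 2 (0.365), and TMM scaling, which takes most arms as level, moved its change to -3.54 (adjusted p = 0.953) and the median of all arms to -3.05. With only arms of 10 CPM or more on average in the fit, all 4 arms of miR-28a and miR-151 fell (adjusted p = 0.000679 to 0.0393 by edgeR), as 34.2% of all arms then did.

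hsDicer against the knockout addressed what the human enzyme restores. miR-28a-5p rose by 7.76 (SE 2.54, adjusted p = 0.0384 by edgeR), where 5.94% of all arms rose and the median arm changed by 5.82. miR-28a-3p stood at 6.61 (SE 2.54, adjusted p = 0.116 by edgeR), miR-151-5p at 6.03 (SE 2.11, adjusted p = 0.0632) and miR-151-3p at 6.61 (SE 3.32, adjusted p = 0.315), all higher with hsDicer in means but below the threshold. Both hsDicer libraries lay above both knockout libraries for miR-28a-5p, miR-28a-3p and miR-151-5p. For miR-151-3p they overlapped by exact matches, and its change was 0.36 without hsDicer replicate 2. With only arms of 10 CPM or more in the fit, miR-28a-5p, miR-28a-3p and miR-151-5p rose (adjusted p = 0.00279, 0.0136 and 0.00549 by edgeR), as 28.2% of all arms did. In the fit of 539 arms the call of miR-28a-5p was lost without hsDicer replicate 1 (adjusted p = 0.313 by edgeR), without knockout replicate 1 (0.380) or without knockout replicate 2 (0.536). Against wild type, no arm of the family and 0% of all arms passed with hsDicer by edgeR (6 of 539 had an unadjusted p under 0.05), and 11 arms did by DESeq2, none of them an arm of miR-28a or miR-151. The 95% interval of the difference ran from -3.30 to 4.12 for miR-28a-5p and from -5.52 to 1.38 for miR-151-5p, from -5.01 to 2.87 for miR-28a-3p and from -7.78 to 2.93 for miR-151-3p, so that sizeable differences in either direction remain possible.

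The RNase III mutants were compared with hsDicer and with each other to see which strand each domain frees. With D1709A, miR-28a-5p fell by 8.59 on the log2 scale (SE 2.63, adjusted p = 0.0331 by edgeR), where 3.34% of all arms fell, all of them 5p arms, and the median arm changed by -2.21. miR-151-5p changed by -6.08 (SE 2.11, adjusted p = 0.102 by edgeR), with both D1709A libraries below both hsDicer libraries. Of the 3p arms, miR-28a-3p differed by -0.92 (95% interval -4.85 to 3.01) and miR-151-3p by 0.16 (-4.93 to 5.25). The latter rests on hsDicer libraries at 0.555 and 84.9 CPM: it was -2.18 with tailed reads counted and ranged from -1.71 (without D1709A replicate 1) to 6.41 (without hsDicer replicate 2). With D1320A, miR-28a-3p changed by -6.49 (SE 2.53, adjusted p = 0.252 by edgeR), where 2.04% of all arms fell and the median arm changed by -0.67. miR-28a-5p was also lower in means, by -2.97 (95% interval -6.96 to 1.02, adjusted p = 0.872 by edgeR). For miR-151 the 5p arm differed by 0.44 (-2.89 to 3.76) and the 3p arm by -2.89 (-8.35 to 2.57), which turned to 3.36 without hsDicer replicate 2. No arm of the family passed for D1320A by edgeR. DESeq2 called miR-28a-3p lower (log2 change -5.79, adjusted p = 0.00149), as it did 9.09% of all arms, and so did edgeR with only arms of 10 CPM or more (adjusted p = 0.0337, where 9.9% of all arms fell). In that smaller fit miR-28a-5p and miR-151-5p both fell with D1709A (adjusted p = 0.00191 and 0.00880 by edgeR), where 14.9% of all arms fell, and DESeq2 kept the fall of miR-28a-5p (adjusted p = 0.0209, with 4.45% of all arms lower). In the double mutant both strands of miR-28a fell, the 5p arm by 9.88 (SE 2.77, adjusted p = 0.00785 by edgeR) and the 3p arm by 9.50 (SE 2.87, adjusted p = 0.0165 by edgeR). There 7.98% of all arms fell and the median arm changed by -5.98. miR-151-3p changed by -7.56 (SE 3.46, adjusted p = 0.209 by edgeR), and by -1.31 without hsDicer replicate 2. miR-151-5p changed by -2.08 (SE 1.76, adjusted p = 0.550 by edgeR) in the double mutant, the comparison in which replicate 1 stood at 227 CPM. DESeq2's scaling turned that arm to 6.19 (adjusted p = 0.0183, with 4.82% of all arms higher), and without replicate 1 of the double mutant edgeR gave -6.65. These falls of miR-28a lost their calls without hsDicer replicate 1 (adjusted p = 0.328 for D1709A and 0.0795 for both arms of the double mutant by edgeR) and without either library of the mutant (0.154 to 0.825). With only arms of 10 CPM or more, both arms of miR-28a fell in the double mutant (adjusted p = 0.000346 and 0.00109 by edgeR), as 32.7% of all arms did. Counting reads with 3′ tails took the adjusted p of miR-28a-5p with D1709A to 0.0822 by edgeR.

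D1320A and D1709A compared directly gave opposite signs for the strands. miR-28a-5p was higher with D1320A by 5.63 (SE 2.31, adjusted p = 0.260 by edgeR) and miR-151-5p by 6.51 (SE 2.15, adjusted p = 0.0855), while miR-28a-3p differed by -5.57 (SE 2.42, adjusted p = 0.318) and miR-151-3p by -3.05 (SE 2.81, adjusted p = 0.655). None of the 4 passed, where 1.3% of all arms were called higher and 0.742% lower. With only arms of 10 CPM or more, miR-28a-5p and miR-151-5p were called higher (adjusted p = 0.0379 and 0.00865 by edgeR), as 7.92% of all arms were. DESeq2 called miR-28a-3p lower (log2 change -7.23, adjusted p = 4.16e-05), as 12.1% of all arms. By exact matches the libraries of the 2 mutants did not overlap for any of the 4 arms. With tailed reads counted, D1320A replicate 2 held 164 miR-151-3p reads among 12176208 inserts. D1709A replicate 2 held 141 among 10357746, so that for miR-151-3p the gap all but closed in replicate 2. In replicate 1 the gap stayed, with 143 reads among 15104136 inserts with D1320A and 1401 among 12800198 with D1709A.

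The share of a hairpin's arm reads that lie on the 5p arm compares both strands within a library and does not depend on scaling. For miR-28a this 5p share was 61.9% and 48.8% with hsDicer. It was 95.1% and 93.1% with D1320A, a mean of 94.1% ± 1.37 (SD, n = 2). It was only 0.636% and 1.18% with D1709A, a mean of 0.910% ± 0.386 (SD, n = 2). The Clopper-Pearson 95% interval of the lowest share, from counting error only, was 0.470% to 0.843%. For miR-151 the hsDicer libraries gave 99.8% and 88.3%. D1320A gave 99.2% and 99.0%, and D1709A 11.2% and 24.2%. Wild-type shares were 27.7% and 48.8% for miR-28a and 92.3% and 87.5% for miR-151. Both D1320A libraries lay above both D1709A libraries for both hairpins, a difference of 93.2 percentage points for miR-28a and 81.4 for miR-151. The 2-sided exact permutation test gave p = 0.333, the smallest that 2 against 2 libraries allow, and 0.556 adjusted over the 10 shares compared. For miR-151 D1320A and hsDicer overlapped by exact matches (exact permutation p = 1).

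As a 5p to 3p ratio tested over 183 hairpins, D1320A against D1709A gave a log2 difference of 10.85 for miR-28a (SE 4.93, adjusted p = 0.243 by edgeR) and 9.09 for miR-151 (SE 4.73, adjusted p = 0.261 by edgeR). edgeR called 0% of the hairpins in this comparison, with 34 at an unadjusted p under 0.05 and a median hairpin at 9.44. limma on log2 ratios with a pseudocount of 0.5, the alternative tool, called both: 10.81 for miR-28a (SE 1.62, adjusted p = 0.00178) and 9.07 for miR-151 (SE 2.50, adjusted p = 0.0251), with 26.2% of all hairpins called higher. It also called both with a pseudocount of 5 (27.9% of all hairpins) and with tailed reads counted (15.8%). Against hsDicer neither tool called the ratio of miR-28a or miR-151 for D1320A, and for D1709A limma did so only with a pseudocount of 5 (adjusted p = 0.0304 and 0.0453, with 7.65% of all hairpins lower).

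**Figure D2:**
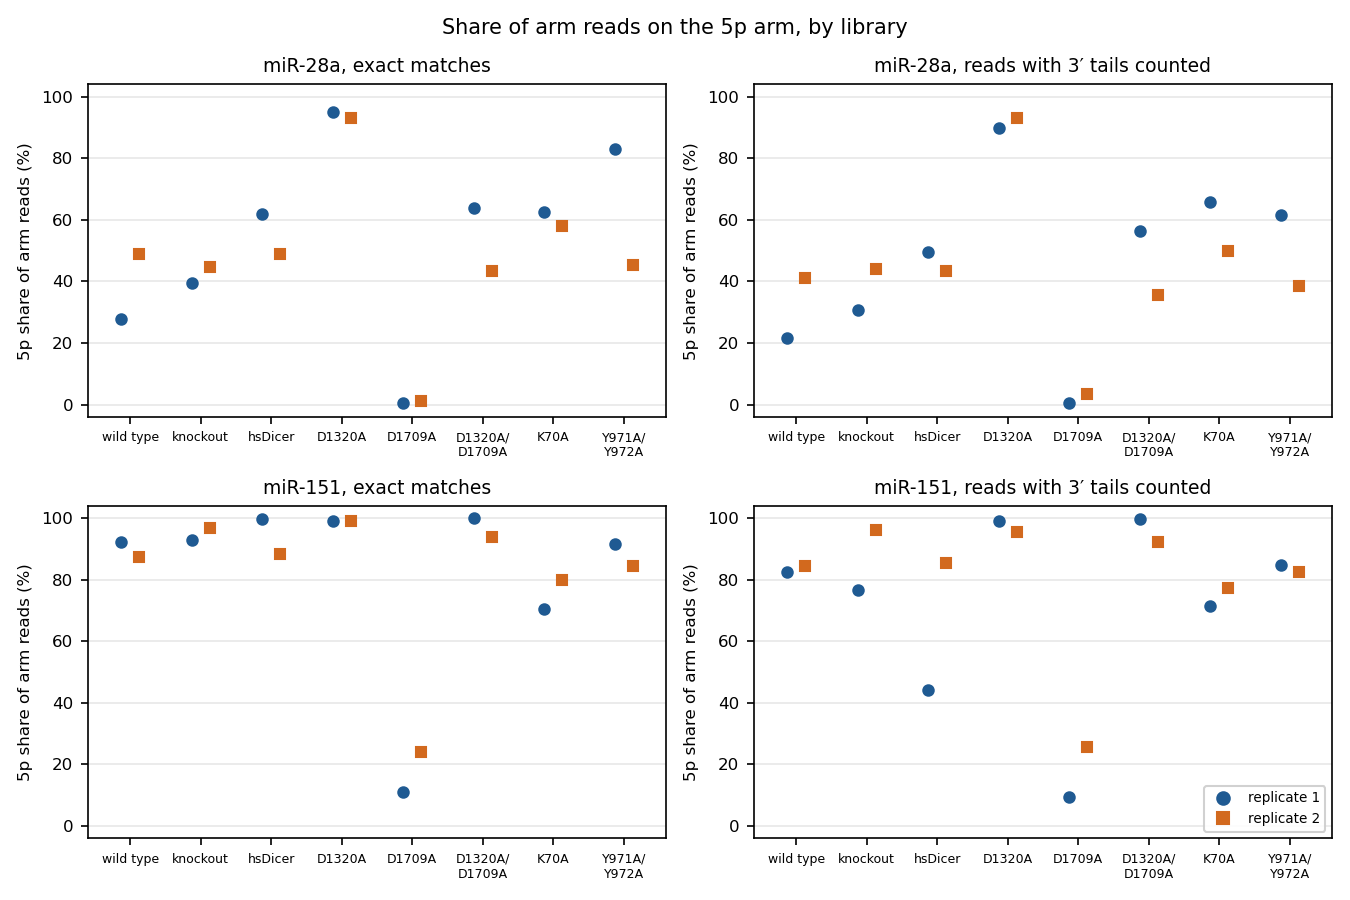
Percent of arm reads on the 5p arm in every library, for miR-28a (top) and miR-151 (bottom), from exact matches (left) and with reads that carry up to 3 extra 3′ bases counted (right). D1709A lies at the bottom in all 4 panels, D1320A lies highest for miR-28a but not for miR-151, where double mutant replicate 1 (99.9%) lies above it, and miR-151 with hsDicer replicate 1 moves from 99.8% to 44.2% between the panels.

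The strand that D1320A left uncut was found as longer reads. In wild type the usual ends placed the 5p and 3p fragments of miR-28a at bases 14 to 35 and 54 to 75 of its hairpin, with a loop of 18 nt between them, and those of miR-151 at bases 8 to 29 and 43 to 64, with a loop of 13 nt. A read that holds the loop and the 3p arm in 1 piece starts where the 5p fragment ends. The product of miR-28a, bases 36 to 75, is shown because it is what remains once the 5p strand alone is cut, with the 3p fragment in capitals.
miR-28a loop and 3p product: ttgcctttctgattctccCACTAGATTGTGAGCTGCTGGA
This fragment of 40 nt made up 6075 of the 6812 reads of loop and 3p arm with D1320A. Such reads of miR-28a were at 399 and 64.1 CPM (6032 and 780 reads) with D1320A and at 0.469 CPM or less in the other 14 libraries, which held 10 of them in all and none in 10 libraries. For miR-151 they were at 538 and 234 CPM (8121 and 2850 reads) with D1320A, with 10 reads in the other 14 libraries and none in 10 of these. With hsDicer 0 such reads of miR-28a were seen, which allows up to 0.208 and 0.160 CPM (3 reads). Both D1320A libraries lay above all others, for which the exact permutation test against hsDicer gave its smallest p of 0.333 for each hairpin.

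The ends of this product lay at the cut that frees the 5p arm. With D1320A 90.6% and 96.3% of these miR-28a reads and 97.9% and 98.6% of these miR-151 reads started at the first base after the usual 5p fragment. Their number came to 187% and 109% of the 5p reads of miR-28a and to 52.2% and 78.3% of those of miR-151. Reads counted on the 3p arm were far rarer, since 36.1 and 14.7 loop-bearing reads were found per exact-match 3p read of miR-28a. For miR-151 these ratios were 63.4 and 77.0. They set unlike counts side by side, as the loop-bearing reads could carry up to 3 unmatched 3′ bases. With such tails counted, the 3p reads with D1320A numbered 373 and 53 for miR-28a and 143 and 164 for miR-151. Of the 53 reads on the 3p side of miR-28a in D1320A replicate 2, 92.5% ran from base 36 to base 57 and so began with the loop, and only 7.55% started at the usual 3p start. In D1320A replicate 1 this share was 41.3%. The miR-28a-3p level with D1320A therefore includes reads that are not the mature 3p fragment.

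**Figure D3:**
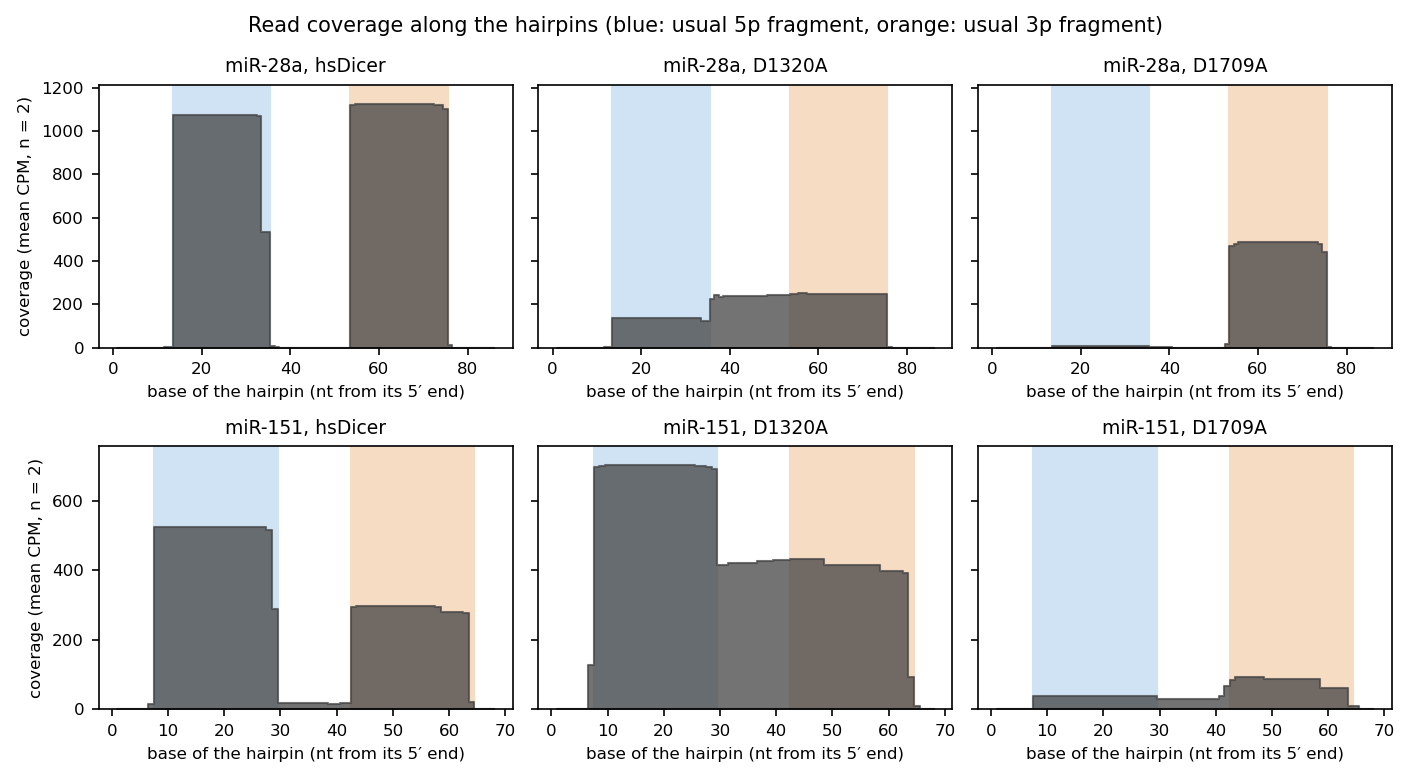
Read coverage (mean CPM of 2 libraries) at each base of the miR-28a and miR-151 hairpins with hsDicer, D1320A and D1709A, from reads of 18 nt or more with up to 3 unmatched 3′ bases. With hsDicer the coverage forms a block on each arm, with D1320A it runs on through the loop of 18 or 13 nt into the 3p arm, and with D1709A miR-28a has coverage of 5.74 CPM on the 5p arm against 487 CPM on the 3p arm, while miR-151 has 37.8 CPM on the 5p arm, 30.01 CPM in the loop and up to 91.5 CPM on the 3p arm.

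The mirror product, the 5p arm joined to the loop, was rare with D1709A, where the 5p strand is the one left uncut. Counted for it were reads of 27 nt or more from the usual 5p start that ended at least 5 nt past the usual 5p end. They also had to run less than 5 nt into the 3p arm and to have their 3′ end seen. The loop and 3p products did not need a seen 3′ end, so the 2 counts are not fully alike. There were 49 for miR-28a and 1 for miR-151 over both D1709A libraries, against 64 and 55 with Y971A/Y972A and 0 for either hairpin with D1320A. For miR-151 knockout replicate 2 held 68 such reads and hsDicer replicate 2 held 28. None of the 49 reads ended within 2 nt of the usual cut before the 3p arm. Mean coverage of miR-28a with D1709A fell from 2.60 CPM at base 40 to 0.234 CPM at base 41, so these reads held only the first bases of the loop. The product would be 40 nt long for miR-28a and 35 nt for miR-151, the same lengths as the loop and 3p products and within the read length of both replicates. For miR-28a it nearly fills the 41 nt reads of replicate 1, so a slightly longer form would not be counted there. For miR-708 no loop-bearing read of either kind was found in any library. Its products would be 46 nt long, longer than the 41 nt reads of replicate 1. Neither D1320A library held a read of either miR-708 arm, so this absence says little about its cutting.

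Reads that start at the 5p end of the miR-151 precursor and run at least 5 nt into the 3p arm, and so come from RNA not cut on the 5p strand, were at 3.76 CPM in wild-type replicate 2 and 47.8 CPM in knockout replicate 2. In the same replicate they were at 32.0 CPM with hsDicer, 31.4 with D1320A, 51.7 with D1709A, 63.1 in the double mutant, 13.4 with K70A and 15.2 with Y971A/Y972A. In replicate 1 they were at 34.9 CPM with D1320A, 7.73 CPM with D1709A and 0 elsewhere, so that wild type and knockout overlapped (exact permutation p = 1). The precursor of miR-151 is 57 nt long and that of miR-28a 62 nt, both longer than the RNA of 15 to 50 nt cut from the gel and than the reads. No such read of miR-28a was seen in any library. A read of 41 nt from its 5p end stops at base 54, so replicate 1 could not show it.

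**Figure D4:**
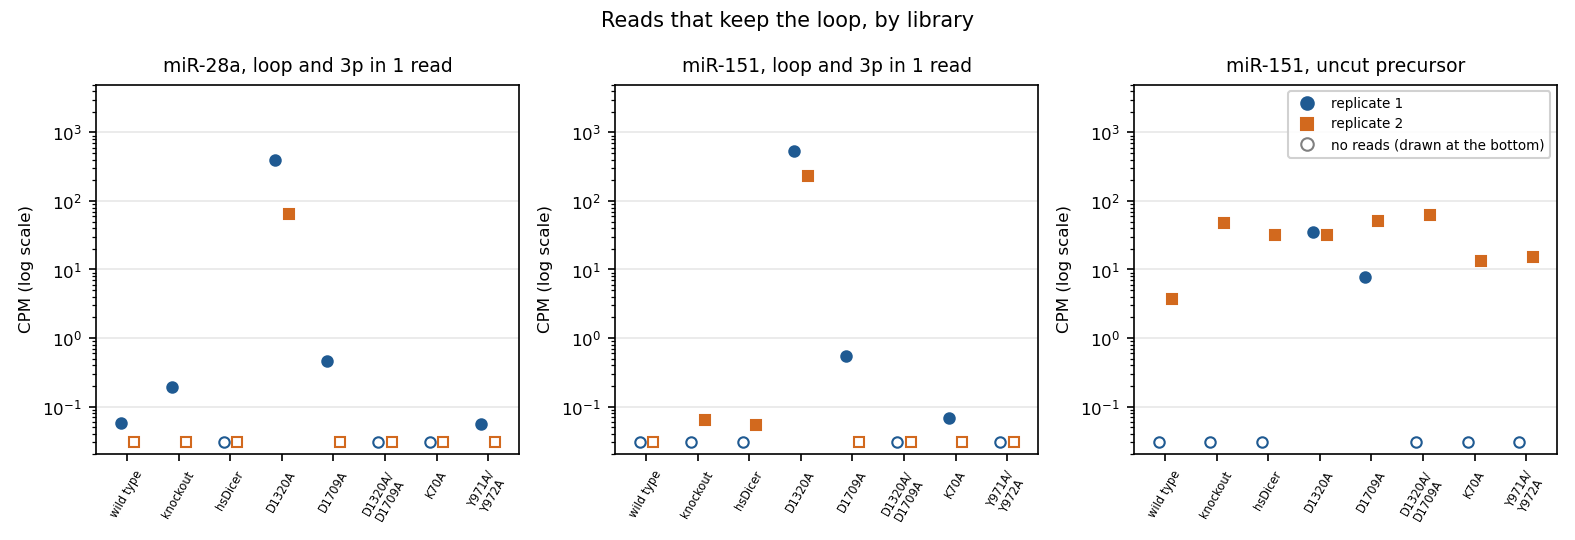
CPM (log axis) of reads that hold the loop and the 3p arm of miR-28a or miR-151, and of reads that run from the 5p end of miR-151 into its 3p arm, in every library, with libraries without such a read drawn open at the bottom. The D1320A libraries hold 64.1 to 538 CPM of the loop and 3p products against 0.547 CPM or less elsewhere, and these longest reads are lowest in wild type among the replicate 2 libraries.

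The helicase mutant K70A and the PAZ mutant Y971A/Y972A were compared with hsDicer. No arm of the family passed in either comparison, and 0% of all arms did by edgeR (2 and 12 of 539 had an unadjusted p under 0.05). By DESeq2 12 and 27 arms passed, none of them an arm of miR-28a or miR-151. miR-28a-5p differed by -0.98 (95% interval -4.72 to 2.76) with K70A and by 0.48 (-3.24 to 4.19) with Y971A/Y972A. miR-28a-3p differed by -0.99 (-4.93 to 2.94) and -0.80 (-4.72 to 3.12). miR-151-5p differed by 1.47 (-1.92 to 4.86) and 1.92 (-1.52 to 5.36), and miR-151-3p by 3.57 (-2.05 to 9.20) and 2.09 (-3.20 to 7.38), in the same order of mutants. The 5p share of miR-28a was 62.5% and 57.9% with K70A, against 61.9% and 48.8% with hsDicer, and the libraries overlapped. With tailed reads counted they did not, at 65.7% and 49.9% with K70A against 49.4% and 43.4% with hsDicer, and the mean difference was 11.3 in place of 4.81 percentage points (exact permutation p = 0.333). With Y971A/Y972A the 5p share of miR-28a was 82.9% and 45.4% by exact matches, the widest gap between the replicates of a group for this hairpin. With tailed reads counted it was 61.7% and 38.6%. For miR-151 the 5p share was 70.5% and 80.1% with K70A, below both hsDicer libraries by exact matches (exact permutation p = 0.333), and 91.8% and 84.6% with Y971A/Y972A. With tailed reads counted the hsDicer shares of miR-151 became 44.2% and 85.6%, and the mean differences turned from -18.8 to 9.54 percentage points for K70A and from -5.87 to 18.8 for Y971A/Y972A.

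Extra bases at the 3′ end that do not match the hairpin, which enzymes add to mature miRNAs and precursors, had higher median shares on the 3p arms. In the libraries with 100 or more reads of an arm, tails of 1 to 3 bases were on 15.99% to 73.9% of miR-28a-3p reads (median 29.9%, 12 libraries) and on 4.26% to 99.9% of miR-151-3p reads (median 23.0%, 10 libraries). On the 5p arms they were on 0.294% to 26.6% of miR-28a-5p reads (median 3.69%, 10 libraries). For miR-151-5p they were on 0.436% to 9.69% (median 1.00%, 12 libraries). With K70A replicate 1 the 5p arm of miR-28a was the more tailed one, at 26.6% against 15.99% for miR-28a-3p. For miR-28a-3p the commonest tail was a single A in wild type, at 20.9% and 25.8% of its reads, and with Y971A/Y972A replicate 1, at 48.0%. With hsDicer replicate 1 a single U, written T in the reads, was on 19.3% of them, as many as had tails of A alone. For miR-151-3p the tail differed by library: TTT was on 6304 of 6462 reads with hsDicer replicate 1, TAT on 59.0% in wild-type replicate 1, and AA on 49.6% with Y971A/Y972A replicate 1. In wild-type and hsDicer replicate 2 the commonest tail of miR-151-3p was T, at 9.62% and 8.95%. These tails move the exact-match levels: with them counted wild-type replicate 1 held 8035 miR-151-3p reads in place of 3180, and hsDicer replicate 1 held 6462 in place of 8.

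The 5′ ends of the arms were narrow and the 3′ ends less so. In all libraries but those of D1320A, at least 95.9% of miR-151-5p reads started at base 8, with the exception of the double mutant replicate 2 (73.1% of 93 reads). With D1320A 82.5% and 74.2% did. For miR-28a-5p at least 98.2% of reads started at base 14 in every library. Its commonest 3′ end moved between libraries: base 36 in wild-type replicate 1 (66.2%), base 33 with hsDicer replicate 1 (54.1%) and base 35 with hsDicer replicate 2 (85.8%). For miR-151-5p, hsDicer replicate 1 ended at base 28 in 99.5% of reads, whereas wild type ended at base 29 in 77.9% and 75.8%. The starts of miR-151-3p moved with both single mutants. With D1320A 56.3% of 128 reads and 2.70% of 37 reads started at the usual base 43. In replicate 1 42.2% ran from base 40 to base 63, and in replicate 2 97.3% ran from base 44 to base 63. With D1709A only 23.7% and 5.19% of reads started at base 43, and 56.0% and 94.8% were a fragment that ran from base 42 to base 63. For miR-28a-3p with D1709A most reads, 92.3% and 99.9%, started at the usual base 54. Mean coverage there rose from 0.234 CPM at base 52 to 17.6 CPM at base 53 and 471 CPM at base 54. A minority thus began 1 nt early, at base 53, where coverage with hsDicer was 0. The number of distinct exact fragments per arm was small, from 2 for the 37931 miR-151-5p reads of wild-type replicate 1 to 14 for the 39486 of replicate 2.

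Over the 16 libraries the pattern of miR-28a-5p was most like that of miR-30d-5p (Pearson's r = 0.98 on log2(CPM + 1), among 202 arms of 10 CPM or more on average), miR-155-5p and miR-26a-5p (0.98 and 0.97). The arms most like miR-28a-3p were miR-17-3p, miR-214-3p and miR-29a-3p (0.98, 0.97 and 0.97), those most like miR-151-5p miR-30a-5p, let-7b-5p and miR-30d-5p (0.96, 0.92 and 0.90), and those most like miR-151-3p miR-25-3p, miR-30a-3p and miR-351-5p (0.98, 0.86 and 0.85). For miR-708-3p they were miR-219a-5p, miR-676-3p and miR-195a-3p (0.75, 0.69 and 0.61). These values describe likeness over libraries that share the low miRNA share of the knockout and the mutants. Of other hairpins often listed as derived from LINE-2 repeats, 4 arms could be tested and 0 passed in any comparison by edgeR. Their median changed by -7.58 in the knockout against wild type, where the median of all arms was -6.95, and by 7.58 with hsDicer against the knockout, where that of all arms was 5.82. Against hsDicer it was lower with all 5 mutants: -2.92 with D1320A, -7.58 with D1709A, -8.23 in the double mutant, -4.49 with K70A and -6.49 with Y971A/Y972A, where the medians of all arms were -0.67, -2.21, -5.98, 0 and -0.15. Each list median rests on only 4 arms, and its distance from the median of all arms was not tested. The reads behind these 4 arms are not given here, and a change fitted against a group without reads shows direction but not size.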

How the data were processed

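The deposited values are counts. Per the labels and the files, the authors gave for each library its distinct reads, still with adapter, and how often each occurred; no tool for that step is named in the sources used here. Per the labels, RNA was extracted with Trizol and 15 to 50 nt were cut from a gel. The 3′ adapter that the labels name was trimmed at its first 12 bases inside a read, or at its first 5 or more bases where the read ended. Inserts of up to 36 nt (replicate 1) and 46 nt (replicate 2) were seen whole.

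Trimmed reads were looked up without mismatch in 1174 GENCODE hairpins (1087 names, GRCm38), which gave counts for 576 arms. Levels were fitted with edgeR 4.0.16 (quasi-likelihood, R 4.3.3) over all 16 libraries, scaled to all inserts, in 9 comparisons, and 5p to 3p ratios over 183 hairpins in 5. The common biological coefficient of variation was 2.10, and the SE of a change is approximate. Alternatives were TMM scaling, DESeq2 1.42.0, no filter or 10 CPM, 20 to 24 nt, shared reads split, the replicate block, limma 3.58.1 and a minimum of 100 reads for ratios, and each library left out. Counting reads with tails of up to 3 bases was chosen after seeing the data. The fits were tested on simulated data. Counting and exact tests ran in Python 3.11.15 (pandas 2.3.3 and numpy 2.4.6, scipy 1.17.1, matplotlib 3.10.9).

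A loop and 3p product is a read of 27 nt or more that starts within 2 nt of the base after the usual 5p end and reaches to within 3 nt of the usual 3p end. All 6 arms are named in every comparison, those of miR-708 only where both groups had reads, with the 3 arms most like each arm of 10 CPM or more on average, and the LINE-2 list is given by counts and median. The members and lists were chosen with earlier results of these data known. Reads are not separate molecules, so intervals and limits of 3 reads cover counting error only.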

Additional observations from a re-analysis of the deposited data

Results flagged for a closer look

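Reads with 1 mismatched base lie outside the exact-match counts, and 3 such changes reached at least 100 reads and more than 10 times the highest wild-type share of the same change. Positions are counted from base 1 of the hairpin. Shares are of the mismatched and the exact reads of the arm together. On miR-151-3p, G53C was on 144 reads with K70A replicate 2, which is 5.53%, against at most 0.0177% in wild type. On miR-28a-3p, G67C was on 115 reads with Y971A/Y972A replicate 2, or 3.06%, against at most 0.0171% in wild type. On miR-151-5p, A26C was on 567 reads with Y971A/Y972A replicate 1, or 0.941%, against at most 0.00791% in wild type. Each of the 3 passed these limits in 1 library only, and the cause was not tested.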

How the results depend on the processing

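For the levels of the 4 arms of miR-28a and miR-151, 366 values under an alternative kept direction and side of the threshold, 24 lost a call, 19 gained one and 23 changed sign. Of the 5p shares 65 kept their sign and 5 did not. Arms called in the knockout against wild type, hsDicer against the knockout, and D1320A, D1709A and the double mutant against hsDicer numbered 31, 32, 11, 18 and 43, with 11 for D1320A against D1709A. TMM scaling left 5, 4, 4, 3, 1 and 5, and arms of 10 CPM or more gave 70, 57, 20, 30, 66 and 29. DESeq2, which centres the arms, gave 18, 13, 59, 28, 27 and 88, and 11, 12 and 27 for hsDicer against wild type, K70A and Y971A/Y972A. DESeq2 turned the direction of the calls: 15 of 18 were higher in the knockout (edgeR 0 of 31), 11 of 13 lower with hsDicer, and 26 of 27 higher in the double mutant. TMM gave 4 of 5 higher in the knockout. Leaving out 1 library gave 8 to 28, 5 to 35, 3 to 11, 1 to 20, 10 to 54 and 2 to 6, with the lone library assumed to vary like the other groups, and 0 for the other comparisons and all ratios. edgeR called no ratio, whereas limma called 10 (D1320A against hsDicer) and 48 (D1320A against D1709A) at pseudocount 0.5, 11, 14 (D1709A against hsDicer) and 51 at pseudocount 5, and 1 and 31 with tails.

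With the replicate block 52 arms were called in the knockout, 18 with D1320A and 22 for D1320A against D1709A, and limma called 21 and 66 ratios. The labels share replicate numbers without saying that they pair libraries: replicate differences correlated between groups at 0.0474 to 0.459 (25 of 28 pairs over 0.1, 202 arms). Under the block 3 changes turned: miR-28a-5p with hsDicer against wild type (-0.37), miR-151-5p with D1320A (-0.21) and miR-151-3p with D1709A (-0.51).

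Against hsDicer, TMM turned miR-28a-3p with D1709A (1.36) and miR-151-5p in the double mutant (3.21). DESeq2 turned the same (1.44 and 6.19), miR-28a-3p with Y971A/Y972A (0.54) and miR-151-5p with hsDicer against the knockout (-0.14). Tails turned miR-151-3p with D1709A (-2.18), miR-28a-3p with Y971A/Y972A (0.15), and for miR-151 the ratio and the 5p share with K70A (0.43 and 9.54 points) and with Y971A/Y972A (1.25 and 18.8 points). Leaving out 1 library turned further changes, with these ranges. For miR-28a-5p they ran from -2.20 (without hsDicer replicate 1) to 1.29 against wild type, from -1.85 to 1.64 (without hsDicer replicate 1) with K70A and from -2.52 (without Y971A/Y972A replicate 1) to 3.09 with Y971A/Y972A, where -0.40 was found without hsDicer replicate 2. For miR-28a-3p they ran from -2.25 to 1.01 with D1709A, -1.79 to 0.94 with K70A and -1.63 to 1.13 with Y971A/Y972A, the positive ends all without hsDicer replicate 1. For miR-151-5p they ran from -0.71 (without D1320A replicate 1) to 1.07 with D1320A and from -0.54 (without Y971A/Y972A replicate 1) to 2.78 with Y971A/Y972A. For miR-151-3p they ran from -3.88 to 3.36 (without hsDicer replicate 2) with D1320A and from -1.71 (without D1709A replicate 1) to 6.41 with D1709A, where -0.83 was found without hsDicer replicate 1. The miR-151 ratio ran from -2.48 (without hsDicer replicate 2; share -0.749 points) to 3.86 with D1320A and from -6.28 to 0.057 (without hsDicer replicate 1) with Y971A/Y972A. The miR-28a ratio ran from -0.10 (without hsDicer replicate 2; share -1.74 points) to 0.66 with K70A and from -0.58 (without Y971A/Y972A replicate 1; share -9.95 points) to 1.96 with Y971A/Y972A. The cause was not tested. With 2 libraries a group and few reads behind some arms, differences of several log2 units were not detectable.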

Other observations

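Precursors of miR-151 are known to be edited from A to I, which is read as G. A-to-G mismatches on miR-151-3p were few over all libraries, against 33070 exact reads. There were 36 reads at position 3 of the arm, or 0.109% of these and the exact reads together. At positions 5, 9 and 19 there were 86, 52 and 62 reads (0.259%, 0.157% and 0.187%). The share at position 3 was thus below those at the other positions given.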
